A study of Homo sapiens with 12 samples.

Results

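Expression of 44 genes of mitosis and the spindle was examined in 12 poly(A)-selected RNA-seq libraries labelled as Hep3B or HepG2, names of established lines from human liver tumours. The 44 genes were taken as a named list of regulators of mitotic entry, mitotic kinases, checkpoint, kinetochore, kinesin, spindle and cytokinesis genes, with no threshold on a measured value. All 44 were found among the 61806 gene IDs of the count table, and all 44 passed the filter on low counts in every comparison. The libraries formed 4 groups of 3. Libraries labelled Hep3B, grown in DMEM, carried a Tet-on-induced control shRNA or a Tet-on-induced shRNA against CD146, the cell adhesion molecule that MCAM encodes. The Tet-on system switches the shRNA on by an added tetracycline. HepG2 libraries, grown in MEM with sodium pyruvate, carried the pLVX vector or the CD146 vector. Titles number the shRNA libraries 1 to 3 and do not say whether the numbers stand for hairpins, clones or cultures, so p-values measure the spread between libraries, which may be technical. Line, medium and vector system could not be told apart in any contrast between the lines.

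The labels were first checked against the data. MCAM stood at 20.1, 22.1 and 24.5 CPM in the CD146 shRNA libraries against 104, 102 and 108 CPM in their controls. HepG2 values of MCAM were 2134, 2127 and 2092 CPM with the CD146 vector against 25.1, 25.8 and 25.8 CPM with pLVX. MCAM shares exon sequence with CBL and MIR6756. CPM are counts per 1e6 counts after scaling by the trimmed mean of M-values (TMM). The groups followed the labels without overlap in both lines (exact permutation test, two-sided p = 0.1 in each, the smallest that 3 against 3 libraries allow). The liver label of the Hep3B libraries was not matched by their transcripts: 16 hepatocyte markers summed to between 6.89 and 9.35 CPM with the control shRNA, against 76977 to 80063 CPM in the HepG2 controls, and AFP and APOA2 were at 0 counts in those 3 libraries. They are called the libraries labelled Hep3B throughout. With the CD146 shRNA the 16 markers summed to between 8.69 and 78.3 CPM, the highest in library 3. In the same libraries 7 endothelial markers summed to 36.5 to 37.4 CPM, against 18.7 to 22.4 CPM with the control shRNA, with CDH5 alone at 18.1, 19.2 and 17.8 CPM, and KDR was at 0 counts in all of them. The 7 fibroblast and stellate markers summed to 88.6 to 108.6 CPM against 53.9 to 62.5 CPM. In HepG2 the hepatocyte sum was 68329 to 68811 CPM with the CD146 vector, and 6 cholangiocyte markers summed to 1302 to 1330.3 CPM against 1008 to 1112 CPM with pLVX. Over the same groups 6 leukocyte markers, nearly all LYZ, summed to 1060.4 to 1136 CPM against 1435 to 1499.6 CPM, and CFTR was at 0 counts throughout HepG2. The part of these markers in the results was not tested. Totals were 12772991 to 18129816 counts per library.

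Cells enter mitosis when CDK1, bound to cyclin B, is released from inhibitory phosphorylation by the CDC25 phosphatases. Polo-like and Aurora kinases then build the spindle, the checkpoint holds back the anaphase-promoting complex until every kinetochore is attached, and separase, kinesins and the cytokinesis machinery part the chromosomes and the cell. The transcripts of these genes accumulate together in G2 and mitosis, and the DREAM, B-MYB and FOXM1 complexes act on their promoters through the cell cycle homology region (CHR) and through CCAAT boxes bound by NF-Y. In a bulk library, fewer cells in mitosis and less RNA per mitotic cell cannot be told apart.

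Promoters are shown because shared promoter letters are a property that the list did not use. RefSeq promoter windows on GRCh38.p14, 250 bases before to 50 bases after the annotated start, were found for 37 of the 44 genes. No window was matched for UBE2C, TPX2, BIRC5, AURKA, FOXM1, TTK and BUB3. The letters TTTGAA or TTCGAA, as in CHR elements, occurred on either strand in 29 of 37 (78.4%), against 19.5% of 27305 genes with a window. CCAAT occurred in 31 of 37 (83.8%), against 39.7% of all genes, and both kinds in 25 of 37 (67.6%), against 7.85%. The windows of AURKB, CCNA2, CCNB1, CENPE, KIF20A, KIF2C, NEK2 and PTTG1 held neither TTTGAA nor TTCGAA. Those of ANLN, BUB1B, CENPE, KIF2C, NDC80 and NUF2 held no CCAAT. A match is a description of letters, not a bound site. The 150 bases before the start are printed for 5 genes whose stretch holds no annotated exon and whose changes differ in kind: KIF11, which fell in both lines, CKS2, among the largest falls in the libraries labelled Hep3B, ESPL1, called in those libraries and not in HepG2, and MKI67 and CENPF, the smallest falls called with the shRNA. Capitals mark TTTGAA or its reverse complement TTCAAA and CCAAT or its reverse complement ATTGG.
KIF11: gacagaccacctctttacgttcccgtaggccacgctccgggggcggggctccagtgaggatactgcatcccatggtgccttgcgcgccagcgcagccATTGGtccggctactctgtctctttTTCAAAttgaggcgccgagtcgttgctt
CKS2: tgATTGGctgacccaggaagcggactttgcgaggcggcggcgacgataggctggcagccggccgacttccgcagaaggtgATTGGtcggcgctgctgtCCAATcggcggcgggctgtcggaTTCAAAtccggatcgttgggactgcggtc
ESPL1: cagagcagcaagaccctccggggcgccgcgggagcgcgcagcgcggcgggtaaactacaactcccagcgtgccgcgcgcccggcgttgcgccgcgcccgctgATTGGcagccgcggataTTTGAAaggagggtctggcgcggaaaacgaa
MKI67: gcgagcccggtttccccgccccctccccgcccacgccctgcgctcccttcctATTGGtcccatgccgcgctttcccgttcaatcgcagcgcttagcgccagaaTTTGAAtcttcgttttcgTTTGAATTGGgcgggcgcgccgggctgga
CENPF: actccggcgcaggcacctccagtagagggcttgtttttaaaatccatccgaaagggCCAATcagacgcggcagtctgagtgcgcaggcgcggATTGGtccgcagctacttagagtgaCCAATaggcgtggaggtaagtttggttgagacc
The stretches lie at chr10:92592980-92593129, plus strand, chr9:89311045-89311194, plus strand, chr12:53268149-53268298, plus strand, chr10:128126424-128126573, minus strand and chr1:214603045-214603194, plus strand, each read towards the start. In KIF11, CKS2 and ESPL1 the CHR letters begin 28, 29 and 31 bases before the start, and the nearest CCAAT lies farther upstream, at 53, 52 and 48 bases. MKI67 has matches 47 and 29 bases before the start, and the second overlaps a CCAAT on the other strand by 1 base. CENPF has 3 CCAAT boxes and no CHR letters in the stretch, while TTTGAA begins 40 bases after its start.

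With the CD146 shRNA, the mitosis and spindle genes were lower in the libraries labelled Hep3B. Of the 44 genes, 41 fell and 1, CENPE, rose, while CDC25C and NUSAP1 did not pass the test (edgeR quasi-likelihood test, Benjamini-Hochberg adjusted p under 0.05 over all genes tested). Over all 16968 genes tested, 28.5% fell and 26.8% rose, and among the genes with a mean of at least 10 CPM 40.6% fell. The median log2 fold change of the 44 was -0.36, a fall of 22.3%, against 0.00 over all genes tested and -0.07 over those of at least 10 CPM. Single genes lay between -0.77 for MAD2L1 and 0.31 for CENPE. In 41 of the 44, all 3 CD146 shRNA libraries lay below all 3 controls, which held for 30.6% of all genes tested. Among genes of at least 10 CPM it held for 4091 of 9648. The 44 genes together took 0.614% ± 0.0038 (SD, n = 3) of all counts in the CD146 shRNA libraries against 0.777% ± 0.0065 in their controls. Mitochondrial genes took 9.90% and 7.85% of counts in those groups, and their part in the result was not tested. Exons of 18 of the 44 overlap those of another gene in GENCODE version 29, and of the 26 without such overlap 25 fell and 1 rose, with a median of -0.35. The 18 are CCNA2, PLK1, BUB1B, MAD2L1, CDC25C, KIF23, KIF20A, KIF2C, KIF4A, KIF18A, CENPA, NUF2, SGO1, PRC1, NUSAP1, HMMR, ANLN and FOXM1. Without library 3 of the CD146 shRNA group, where the hepatocyte sum was highest, 40 genes fell and 1 rose, with a median of -0.39.

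**Figure D1:**
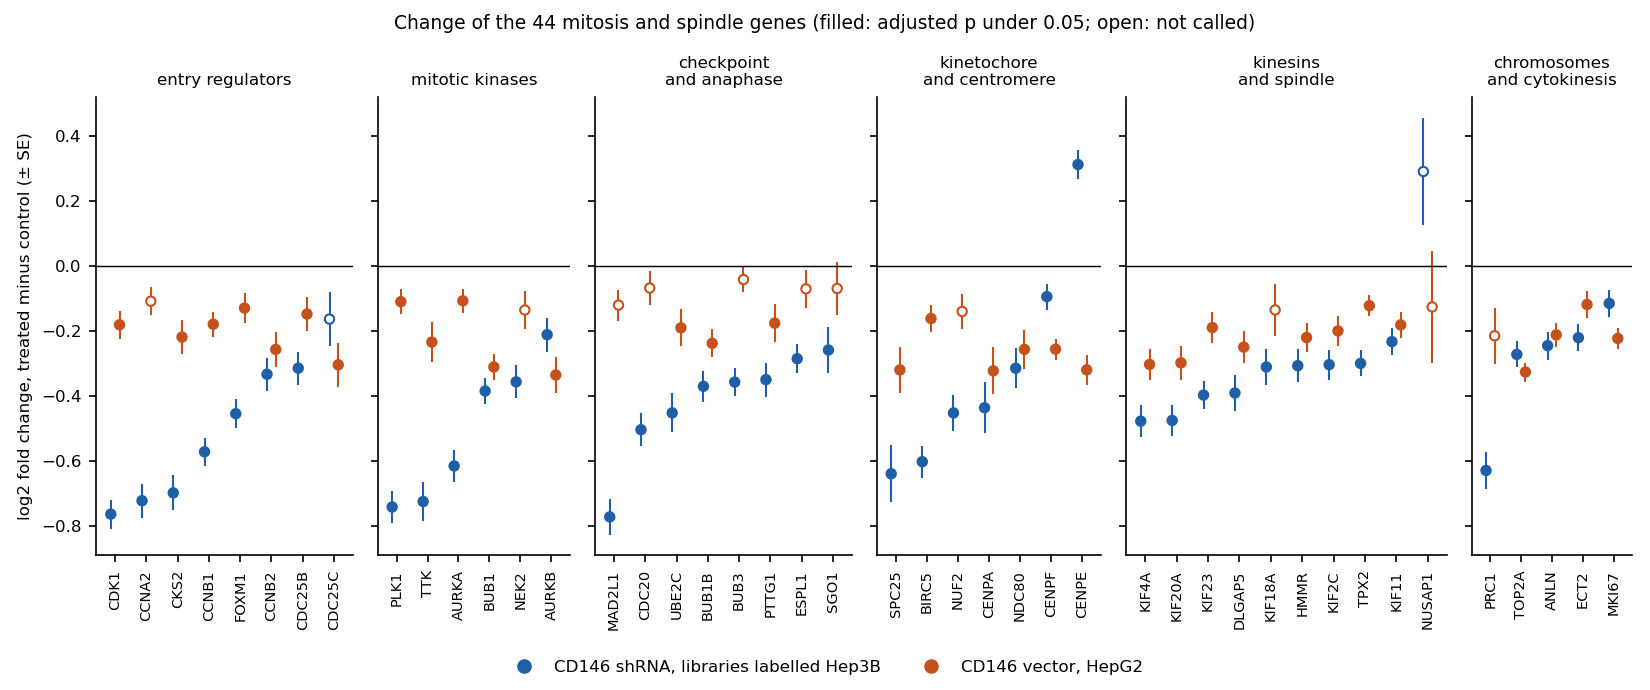
Log2 fold change of each of the 44 genes (vertical axis, treated minus control, bars ± SE) in the libraries labelled Hep3B with the CD146 shRNA (blue) and in HepG2 with the CD146 vector (orange), by role. Filled points passed the test. 41 blue points are filled below 0 and CENPE is filled above it, while all 44 orange points lie below 0 and 33 of them are filled.

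In HepG2 the CD146 vector was also accompanied by lower levels of these genes, with smaller changes. Of the 44 genes, 33 fell and 11 did not pass the test (edgeR), while over all 15300 genes tested 10.3% fell and 9.55% rose, and of those of at least 10 CPM 14.6% fell. None of the 44 rose, at an unadjusted p under 0.05 either, nor by DESeq2 or limma. All 44 estimates lay below 0, with a median of -0.19 (a fall of 12.4%) and a range from -0.34 for AURKB to -0.04 for BUB3, against a median of 0.00 over all genes tested. All 3 CD146 libraries lay below all 3 pLVX libraries for 36 of the 44, as for 16.5% of all genes. Among genes of at least 10 CPM this held for 2075 of 9588. The 44 genes held 0.526% ± 0.0062 of counts with pLVX and 0.477% ± 0.0026 with the CD146 vector, while the mitochondrial share was 12.7% and 11.5%, whose part was not tested. Of the 26 genes without exon overlap 22 fell, with a median of -0.19. The count depended on the scaling. When libraries were scaled by their totals alone, the median of all genes was 0.07 and that of the 44 was -0.12, and 22 genes fell. The 11 calls lost with totals alone were those of CDK1, PLK1, AURKA, CDC25B, KIF23, PTTG1, BIRC5, TPX2, ECT2, FOXM1 and UBE2C. On log2 FPKM in limma 16 fell, the same 11 being lost with CCNB1, TTK, KIF11, KIF20A, NDC80 and HMMR. The share of all calls that were lower was 51.9% in the main test, 20.5% with totals alone and 23.7% to 24.0% on FPKM, and the falls in HepG2 are stated relative to the other genes as TMM scales them. Calls of some small falls were lost when 1 library was left out. Several of these lay near the threshold, as PLK1, ECT2 and CDC25B did (edgeR adjusted p = 0.032, 0.037 and 0.041). The calls of PLK1, CDC25B, PTTG1, ECT2, FOXM1 and UBE2C were lost without CD146 library 1, those of ECT2 and FOXM1 without library 2, and those of PLK1, AURKA, CDC25B, PTTG1, BIRC5, ECT2 and FOXM1 without library 3. Of the pLVX libraries, leaving out the first lost AURKA, PTTG1 and FOXM1, the second PLK1, AURKA, CDC25B, BIRC5, ECT2 and UBE2C, and the third PLK1, PTTG1 and ECT2. CCNA2 and MAD2L1 were called fallen without CD146 library 3 or pLVX library 1, and NUF2 without the latter.

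**Figure D2:**
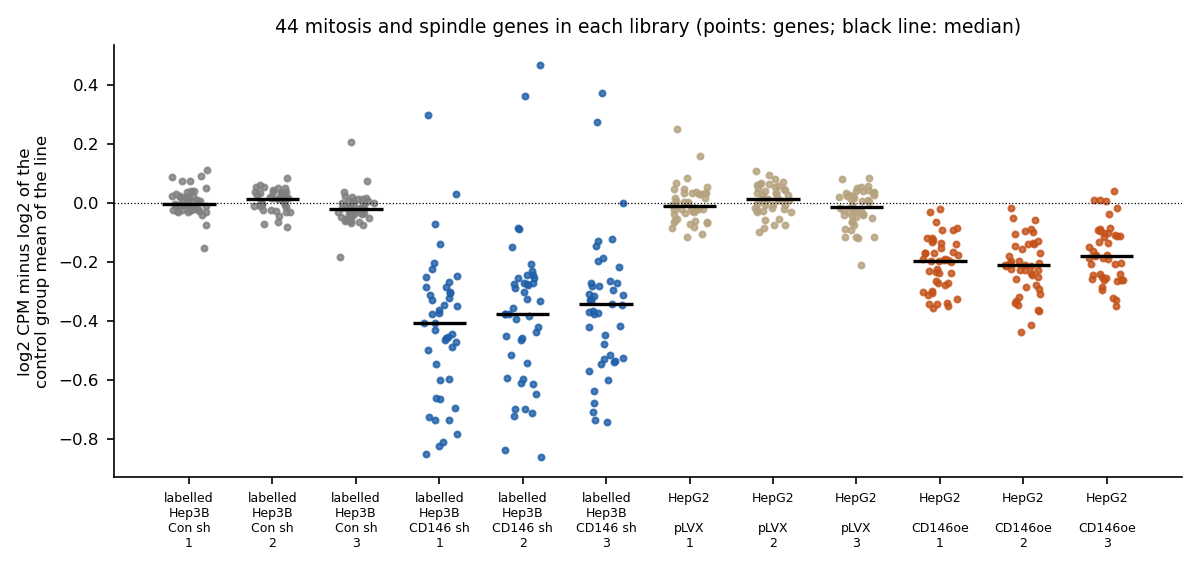
Log2 CPM of each of the 44 genes in each of the 12 libraries, minus the log2 of the mean of the control group of the same line (points, genes; black lines, medians). The medians of the CD146 shRNA libraries lie at -0.40, -0.37 and -0.34 and those of the CD146 vector libraries at -0.19, -0.21 and -0.18, while each control library has its median within 0.02 of 0.

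Regulators of mitotic entry had the largest median fall with the CD146 shRNA, at -0.51 over 8 genes, of which 7 fell. The median of the 6 mitotic kinases, -0.50, was close to it. In HepG2 the 8 entry regulators had a median of -0.18 and 7 fell. CDK1, the kinase that drives entry (chr10:60778331-60794852 on GRCh38, GENCODE version 29), stood at 157, 151 and 169 CPM in the CD146 shRNA libraries against 267, 280.3 and 263 CPM in their controls, a log2 fold change of -0.76 ± 0.04 (SE, n = 3 libraries per group, edgeR adjusted p = 5.1e-18). HepG2 values of CDK1 were 116, 115 and 121 CPM with the CD146 vector against 123, 137 and 138 CPM with pLVX, a change of -0.18 ± 0.04 (adjusted p = 0.001), a call lost with totals alone and on FPKM. The treated libraries lay below the controls in both lines, and the fall was larger with the shRNA. CCNA2, cyclin A2, a CDK partner of S phase and G2, stood at 47.6, 48.9 and 47.4 CPM in the CD146 shRNA libraries against 75.4, 81.0 and 81.3 CPM in their controls, a change of -0.72 ± 0.05 (adjusted p = 3.4e-15). Its HepG2 values were 132, 125 and 146 CPM with the CD146 vector against 139, 153 and 142 CPM with pLVX, where the groups overlapped (-0.11 ± 0.04, adjusted p = 0.068). CCNA2 exons overlap those of EXOSC9, and reads of the pair could be mixed. CCNB1, cyclin B1, stood at 128, 128 and 135 CPM in the CD146 shRNA libraries against 193, 200.1 and 189 CPM in their controls (-0.57 ± 0.04, adjusted p = 1.5e-14). HepG2 values of CCNB1 were 159, 156 and 168 CPM with the CD146 vector against 174, 186 and 186 CPM with pLVX (-0.18 ± 0.04, adjusted p = 0.00033), again without overlap between the groups. CDC25C, a phosphatase that activates CDK1, was the entry regulator that fell in HepG2 and was not called with the shRNA. It stood at 16.1, 15.8 and 18.8 CPM in the CD146 shRNA libraries against 19.8, 18.4 and 18.2 CPM in their controls, groups that overlapped (-0.16 ± 0.08, adjusted p = 0.097). HepG2 values of CDC25C were 26.2, 26.1 and 27.3 CPM with the CD146 vector against 34.5, 32.1 and 31.9 CPM with pLVX, all treated libraries below the controls (-0.30 ± 0.07, adjusted p = 0.00064). Its exons overlap those of FAM53C. The other 4 fell in both lines: CKS2, a CDK-binding subunit (-0.70 with the shRNA and -0.22 with the vector), FOXM1, a transcription factor of G2 genes (-0.45 and -0.13), CCNB2, cyclin B2 (-0.33 and -0.26), and the phosphatase CDC25B (-0.31 and -0.15).

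All 6 mitotic kinases fell with the CD146 shRNA, with a median of -0.50, and 5 of 6 fell in HepG2, with a median of -0.19. PLK1, the polo-like kinase of centrosome maturation and spindle assembly, stood at 57.5, 61.5 and 61.7 CPM in the CD146 shRNA libraries against 99.1, 105 and 97.8 CPM in their controls (-0.74 ± 0.05, adjusted p = 4.2e-16). HepG2 values of PLK1 were 144, 149 and 148 CPM with the CD146 vector against 156, 161 and 157 CPM with pLVX (-0.11 ± 0.04, adjusted p = 0.032). The groups did not overlap in either line, but the HepG2 difference was small and PLK1 shares exon sequence with ERN2 and AC008870.3. AURKA, the Aurora kinase of the spindle poles, stood at 68.7, 72.8 and 76.4 CPM in the CD146 shRNA libraries against 112, 112 and 109 CPM in their controls (-0.62 ± 0.05, adjusted p = 4.3e-14). Its HepG2 levels were 182, 181 and 176 CPM with the CD146 vector against 193, 195 and 189 CPM with pLVX (-0.11 ± 0.04, adjusted p = 0.028), lower in every treated library. AURKA fell more with the shRNA, by -0.51 ± 0.06, adjusted p = 7e-10 in the test of the difference. TTK, a kinase of the spindle checkpoint, stood at 30.4, 33.2 and 36.1 CPM in the CD146 shRNA libraries against 53.9, 55.7 and 54.5 CPM in their controls (-0.73 ± 0.06, adjusted p = 3.1e-13). HepG2 values of TTK were 39.1, 35.5 and 36.2 CPM with the CD146 vector against 42.3, 42.7 and 45.1 CPM with pLVX (-0.23 ± 0.06, adjusted p = 0.0035), and neither pair of groups overlapped. AURKB, the Aurora kinase of the chromosomal passenger complex, ran the other way in size, with -0.21 ± 0.05 in the libraries labelled Hep3B and -0.34 ± 0.06 in HepG2, the largest fall there, though that difference did not pass the test of the difference (adjusted p = 0.26). The checkpoint kinase BUB1 fell in both lines (-0.39 ± 0.04 and -0.31 ± 0.04). NEK2, a centrosome kinase, fell with the shRNA (-0.36 ± 0.05) and had -0.14 ± 0.06 (adjusted p = 0.088) in HepG2.

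Checkpoint and anaphase genes had the largest gap between the lines in the number of calls. All 8 fell with the CD146 shRNA (median -0.36) and 3 of 8 fell in HepG2 (median -0.10). The test of the difference called 5 of the 8, all lower. It called 6165 of all 18870 genes, 3549 of them lower. Of the 10162 genes of at least 10 CPM it called 5048, of which 3094 were lower. MAD2L1, which encodes the checkpoint protein MAD2 (chr4:120055608-120067074), stood at 41.3, 37.5 and 41.0 CPM in the CD146 shRNA libraries against 67.2, 68.0 and 69.1 CPM in their controls, the largest fall of the 44 (-0.77 ± 0.05, adjusted p = 2.4e-15). HepG2 values of MAD2L1 were 92.8, 86.7 and 100.1 CPM with the CD146 vector against 93.4, 106 and 104 CPM with pLVX, groups that overlapped (-0.12 ± 0.05, adjusted p = 0.066). CDC20, the activator of the anaphase-promoting complex that the checkpoint inhibits, stood at 58.4, 65.4 and 63.7 CPM in the CD146 shRNA libraries against 88.4, 90.9 and 86.4 CPM in their controls (-0.50 ± 0.05, adjusted p = 4.2e-11). HepG2 values of CDC20 were 56.4, 58.3 and 54.6 CPM with the CD146 vector against 59.6, 60.3 and 56.9 CPM with pLVX (-0.07 ± 0.05, adjusted p = 0.41), again with overlap. MAD2L1 and CDC20 thus had separate groups with the shRNA and overlapping groups with the vector. Exons of MAD2L1 overlap those of AC108866.1. BUB3, a checkpoint protein at kinetochores, stood at 129.8, 127 and 134 CPM in the CD146 shRNA libraries against 169.9, 168 and 163 CPM in their controls (-0.36 ± 0.04, adjusted p = 3.7e-09). HepG2 values of BUB3 were 157, 155 and 156 CPM with the CD146 vector against 158, 164 and 158 CPM with pLVX (-0.04 ± 0.04, adjusted p = 0.49). The HepG2 groups of BUB3 did not overlap, yet the estimate was the smallest of the 44 there. ESPL1, the separase that cleaves cohesin at anaphase, stood at 96.8, 104 and 102 CPM in the CD146 shRNA libraries against 124, 121 and 124 CPM in their controls (-0.29 ± 0.05, adjusted p = 1e-06). HepG2 values of ESPL1 were 43.7, 48.2 and 51.6 CPM with the CD146 vector against 48.1, 51.8 and 50.5 CPM with pLVX, with overlap (-0.07 ± 0.06, adjusted p = 0.45). SGO1, a protector of centromeric cohesion, had -0.26 ± 0.07 and -0.07 ± 0.08 (adjusted p = 0.63). The 3 that fell in both were BUB1B, the checkpoint protein BUBR1 (-0.37 and -0.24), UBE2C, a ubiquitin-conjugating enzyme of the anaphase-promoting complex (-0.45 and -0.19), and PTTG1, securin (-0.35 and -0.18).

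Kinetochore and centromere genes included the only gene of the 44 that rose. CENPE, the kinesin that links kinetochores to microtubules (chr4:103105806-103198409), stood at 119, 124 and 117 CPM in the CD146 shRNA libraries against 100.1, 96.8 and 93.0 CPM in their controls, a rise of 0.31 ± 0.05 (adjusted p = 2.7e-07). HepG2 values of CENPE were 72.1, 72.2 and 74.9 CPM with the CD146 vector against 93.7, 90.1 and 89.7 CPM with pLVX, a change of -0.32 ± 0.05 (adjusted p = 2.2e-07). Every treated library lay above the controls in the first line and below them in the second, and the difference between the changes was 0.63 ± 0.07 (adjusted p = 9.7e-12). Among all 13559 genes tested in both lines, 2.89% rose with the shRNA and fell with the vector. CENPF, a large protein of the outer kinetochore, stood at 782, 772 and 749.9 CPM in the CD146 shRNA libraries against 826, 803 and 829.9 CPM in their controls (-0.09 ± 0.04, adjusted p = 0.043). HepG2 values of CENPF were 315, 322 and 317 CPM with the CD146 vector against 374, 377 and 386 CPM with pLVX (-0.26 ± 0.03, adjusted p = 9.5e-09). The fall of CENPF was larger in HepG2, by 0.16 ± 0.05 (adjusted p = 0.015), a difference not called with totals alone or on FPKM, and its call with the shRNA was lost under RLE size factors, without control library 1 or 3 and without CD146 shRNA library 2 or 3. BIRC5, survivin of the chromosomal passenger complex, stood at 62.4, 64.6 and 68.5 CPM in the CD146 shRNA libraries against 102, 99.99 and 94.6 CPM in their controls (-0.60 ± 0.05, adjusted p = 2e-13). HepG2 values of BIRC5 were 122, 122 and 116 CPM with the CD146 vector against 138, 141 and 124 CPM with pLVX (-0.16 ± 0.04, adjusted p = 0.0039), with all treated libraries lower. The NDC80 complex, which holds microtubule ends, has 3 members here. NUF2 stood at 49.5, 47.7 and 55.5 CPM in the CD146 shRNA libraries against 69.3, 70.3 and 68.7 CPM in their controls (-0.45 ± 0.05, adjusted p = 4e-09). Its HepG2 levels were 49.6, 51.6 and 53.3 CPM with the CD146 vector against 53.4, 56.4 and 60.1 CPM with pLVX (-0.14 ± 0.06, adjusted p = 0.065), lower in all treated libraries but not called. SPC25 (-0.64 ± 0.09 and -0.32 ± 0.07) and NDC80 (-0.31 ± 0.06 and -0.26 ± 0.06) fell in both lines. CENPA, the centromeric histone, fell as well (-0.44 ± 0.08 and -0.32 ± 0.07).

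**Figure D3:**
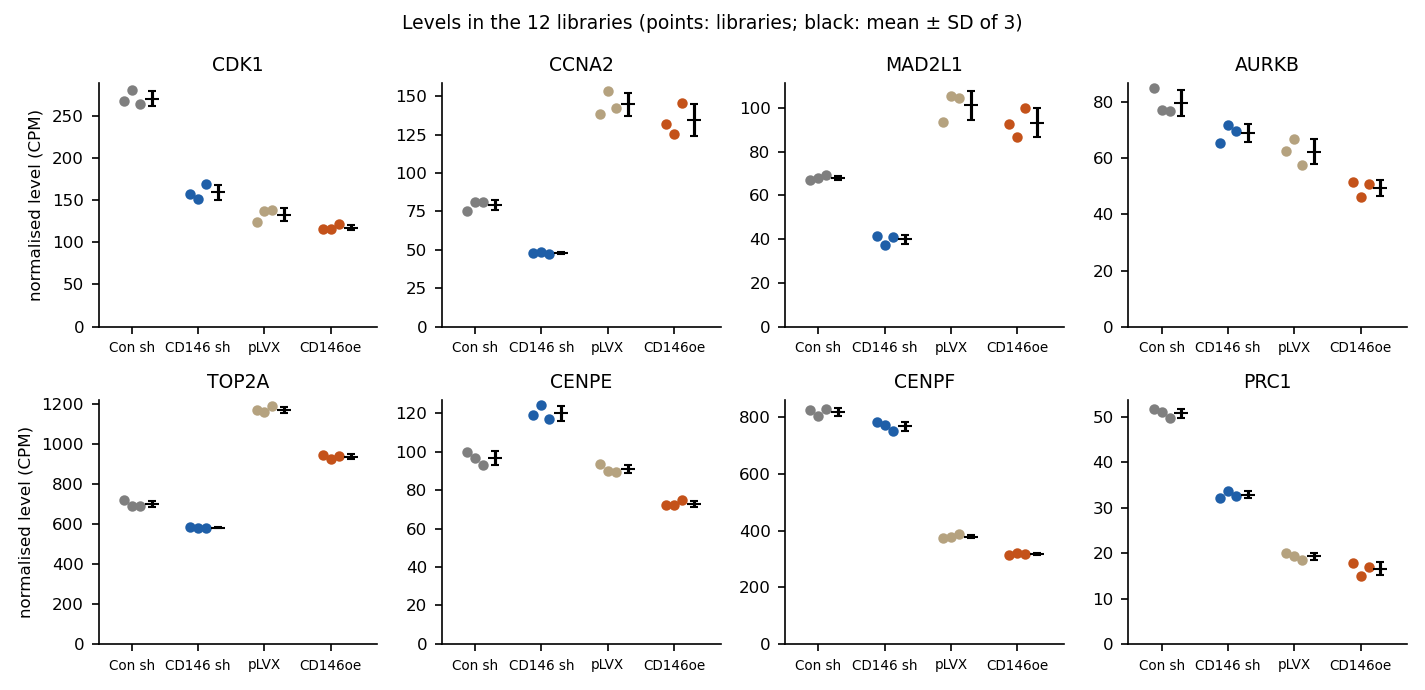
Normalised levels (CPM, vertical axes from 0) of 8 genes in the 12 libraries (points) with the mean ± SD of each group of 3 (black). For CDK1, CCNA2, MAD2L1 and PRC1 the gap to the controls is widest with the CD146 shRNA, CENPE lies above its controls with the shRNA and below them with the vector, and the control levels of CDK1, CENPF and PRC1 are higher in the libraries labelled Hep3B while those of CCNA2, MAD2L1 and TOP2A are higher in HepG2.

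Of the 10 kinesins and spindle proteins, 9 fell with the CD146 shRNA (median -0.31) and 8 in HepG2 (median -0.20). KIF20A, a kinesin of the central spindle, stood at 79.2, 83.7 and 86.4 CPM in the CD146 shRNA libraries against 117, 118 and 111 CPM in their controls (-0.48 ± 0.05, adjusted p = 3.4e-11). HepG2 values of KIF20A were 61.1, 67.6 and 61.7 CPM with the CD146 vector against 73.2, 83.6 and 75.6 CPM with pLVX (-0.30 ± 0.05, adjusted p = 1.5e-05). All treated libraries lay below the controls in both lines. KIF4A, a chromosome-bound kinesin, stood at 71.3, 70.6 and 66.4 CPM in the CD146 shRNA libraries against 96.5, 101 and 93.4 CPM in their controls (-0.48 ± 0.05, adjusted p = 5.8e-11). HepG2 values of KIF4A were 66.5, 67.8 and 71.7 CPM with the CD146 vector against 86.5, 87.8 and 79.5 CPM with pLVX (-0.30 ± 0.05, adjusted p = 2.5e-06). Its groups did not overlap in either line. KIF23, a subunit of centralspindlin, stood at 124, 132 and 135 CPM in the CD146 shRNA libraries against 168, 173 and 173 CPM in their controls (-0.40 ± 0.04, adjusted p = 4.3e-10). HepG2 values of KIF23 were 73.7, 71.8 and 73.2 CPM with the CD146 vector against 82.0, 86.3 and 80.5 CPM with pLVX (-0.19 ± 0.05, adjusted p = 0.002), again with no overlap. KIF18A, which limits chromosome oscillation, stood at 44.4, 41.7 and 44.9 CPM in the CD146 shRNA libraries against 54.8, 54.0 and 53.4 CPM in their controls (-0.31 ± 0.06, adjusted p = 7.2e-06). HepG2 values of KIF18A were 23.2, 20.7 and 23.2 CPM with the CD146 vector against 27.6, 23.8 and 22.8 CPM with pLVX, with overlap (-0.14 ± 0.08, adjusted p = 0.25). NUSAP1, a microtubule bundler, was the member with the lowest counts, at 3.84, 5.20 and 4.88 CPM in the CD146 shRNA libraries against 3.39, 3.55 and 4.34 CPM in their controls, and in HepG2 4.02, 4.01 and 4.72 CPM with the CD146 vector against 5.58, 4.43 and 4.06 CPM with pLVX. Its groups overlapped in both lines (0.29 ± 0.16, adjusted p = 0.13, and -0.13 ± 0.17, adjusted p = 0.68), and its exons overlap those of AC087721.2. The other 5 fell in both lines, the spindle motor KIF11 (-0.23 and -0.18), the microtubule depolymerase KIF2C (-0.30 and -0.20), the Aurora A activator TPX2 (-0.30 and -0.12), and the spindle proteins DLGAP5 (-0.39 and -0.25) and HMMR (-0.31 and -0.22). KIF20A, KIF4A, KIF23, KIF2C and KIF18A each share exon sequence with another annotated gene.

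Chromosome and cytokinesis genes had the smallest median fall with the CD146 shRNA, -0.25 over 5 genes that all fell, and a median of -0.22 in HepG2, where 4 fell. TOP2A, the topoisomerase that untangles sister chromatids (chr17:40388516-40417950), stood at 583, 578 and 581 CPM in the CD146 shRNA libraries against 719.7, 690.0 and 692 CPM in their controls (-0.27 ± 0.04, adjusted p = 2.4e-07). HepG2 values of TOP2A were 946, 924 and 939.9 CPM with the CD146 vector against 1169.5, 1159.9 and 1189 CPM with pLVX (-0.33 ± 0.03, adjusted p = 2.1e-13), the smallest adjusted p of the 44 there, with no overlap in either line. MKI67, the proliferation marker Ki-67 that coats mitotic chromosomes, stood at 803, 834 and 812 CPM in the CD146 shRNA libraries against 877, 842 and 932 CPM in their controls (-0.12 ± 0.04, adjusted p = 0.019). HepG2 values of MKI67 were 492, 487 and 469 CPM with the CD146 vector against 564, 568 and 555 CPM with pLVX (-0.22 ± 0.03, adjusted p = 1.2e-07). The shRNA groups of MKI67 were close to each other, and the call was lost without control library 3 or CD146 shRNA library 1 or 3. PRC1, which bundles the central spindle for cytokinesis, stood at 32.2, 33.7 and 32.7 CPM in the CD146 shRNA libraries against 51.7, 51.0 and 49.7 CPM in their controls (-0.63 ± 0.06, adjusted p = 3.9e-12). HepG2 values of PRC1 were 17.8, 15.0 and 17.0 CPM with the CD146 vector against 19.9, 19.5 and 18.5 CPM with pLVX, lower in all treated libraries but not called (-0.22 ± 0.09, adjusted p = 0.073). ANLN, anillin of the contractile ring (-0.25 and -0.21), and ECT2, the exchange factor that activates RhoA for cytokinesis (-0.22 and -0.12), fell in both lines.

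Calls in the separate lines were then set side by side. The knockdown and the overexpression share no library. Of the 44 genes, 31 fell in both, against 4.45% of the 13559 genes tested in both. This count depends on the scaling in HepG2, where 22 of the 44 fell with totals alone and 16 on FPKM. Every HepG2 call lost under those settings was that of a gene among the 31. That share was taken over genes of all levels, low ones included. A further 10 fell with the shRNA and were not called in HepG2 (CCNA2, NEK2, BUB3, MAD2L1, CDC20, ESPL1, SGO1, NUF2, KIF18A and PRC1), CDC25C fell in HepG2 and was not called with the shRNA, CENPE was called in opposite directions and NUSAP1 in neither. Without CD146 shRNA library 3, CDC25C was called fallen with the shRNA as well. Across the 44 genes, Pearson's r between the changes in the lines was -0.17 and Spearman's rho -0.18, given as a description because genes of the same libraries are not independent. The estimate was lower with the shRNA for 37 genes and lower with the vector for 7. In the test of the difference over all 12 libraries, knockdown change minus overexpression change, 21 genes were lower and 2, CENPE and CENPF, were higher, against 18.8% lower and 13.9% higher of 18870 genes tested. Of the 10162 genes of at least 10 CPM, 3094 were lower and 1954 higher. The median difference was -0.18, against -0.02 over all genes and -0.07 over those of at least 10 CPM. The count of lower genes was 18 with RLE size factors, 16 with DESeq2 and 35 with totals alone, the last with a median over all genes of -0.12. The share of all calls that were lower was 57.6%, 72.1% with totals alone and 65.9% to 67.9% on FPKM. Some of these calls did not hold when 1 library was left out. That of KIF4A lay near the threshold (edgeR adjusted p = 0.049). It was lost without CD146 shRNA library 3, any control shRNA library, CD146 vector library 2 or 3, or pLVX library 3. ESPL1 was lost without CD146 shRNA library 1, control shRNA library 1 or 3, CD146 vector library 3 or pLVX library 1, and SPC25 without CD146 shRNA library 1, control shRNA library 2 or CD146 vector library 3. UBE2C and NEK2 were lost without control shRNA library 2 or CD146 vector library 3, UBE2C and CENPF without pLVX library 3 (CENPF also with totals alone and on FPKM), and NEK2 without pLVX library 1. Line and treatment cannot be told apart in this contrast.

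The larger falls with the shRNA were led by MAD2L1 (-0.65 ± 0.08, adjusted p = 3.5e-10), PLK1 (-0.63 ± 0.06, adjusted p = 2.8e-12), CCNA2 (-0.62 ± 0.07, adjusted p = 3.2e-10) and CDK1 (-0.58 ± 0.06, adjusted p = 4.3e-11), a checkpoint gene, a kinase, a cyclin and the entry kinase. Of the entry regulators 5 of 8 were among the 21, and likewise 4 of 6 mitotic kinases, 5 of 8 checkpoint and anaphase genes, 3 of 7 kinetochore and centromere genes, 3 of 10 kinesins and spindle genes and 1 of 5 chromosome and cytokinesis genes. Over all genes 18.8% were lower in this test, and 3094 of the 10162 of at least 10 CPM. The counts of the last 2 roles were close to these shares. The 29 genes with TTTGAA or TTCGAA had median changes of -0.33 and -0.22 in the libraries labelled Hep3B and HepG2, and the 8 without either had -0.35 and -0.19. The windows of CENPE and KIF2C held neither those letters nor CCAAT. CENPE rose with the shRNA and fell in HepG2 (0.31 and -0.32), and KIF2C fell in both lines (-0.30 and -0.20). The part of promoter letters in the changes was not tested.

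The control groups were compared to ask where each gene started from. This comparison uses the control libraries of both other comparisons, so its values are not independent of theirs. Of the 44 genes, 26 were higher in the labelled Hep3B controls, 14 were lower and 4 (CCNB1, BUB3, CENPE and NUSAP1) were not called, against 43% higher and 42.1% lower of 17401 genes tested. The median was 0.22 and the range was from -0.91 for CCNA2 to 1.36 for PRC1, wider than the range of either treatment. With totals alone the median of all genes moved from 0.02 to 0.38, and 32 genes were higher and 8 lower. On log2 FPKM, 30 were higher and 7 lower. Of the 14 genes called lower, BUB1B, CENPA, NDC80, DLGAP5, HMMR and UBE2C had the opposite direction with totals alone and on FPKM. The share of all calls that were lower was 49.5% in the main test, 36.5% with totals alone and 36.4% to 36.5% on FPKM. PRC1 was higher in all 3 labelled Hep3B controls by 1.36 ± 0.07 (adjusted p = 9.2e-36), ESPL1 by 1.26 ± 0.05 (adjusted p = 1.4e-44) and KIF18A by 1.10 ± 0.07 (adjusted p = 3.4e-30). CENPF was higher by 1.07 ± 0.04 (adjusted p = 3.3e-49), KIF23 by 1.01 ± 0.04 (adjusted p = 1e-40) and CDK1 by 0.98 ± 0.04 (adjusted p = 3.4e-42). None of these 6 pairs of control groups overlapped. Exons of PRC1, KIF18A and KIF23 overlap those of other genes. In the other direction, CDC25C (-0.84 ± 0.07), AURKA (-0.83 ± 0.04), TOP2A (-0.78 ± 0.04), SPC25 (-0.74 ± 0.08), PLK1 (-0.69 ± 0.04) and MAD2L1 (-0.61 ± 0.05) were lower, and under TMM scaling every role had genes called on both sides. CENPA was no longer called without labelled Hep3B control library 3, nor CDC25B without pLVX library 3, and NUSAP1 was called without either.

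**Figure D4:**
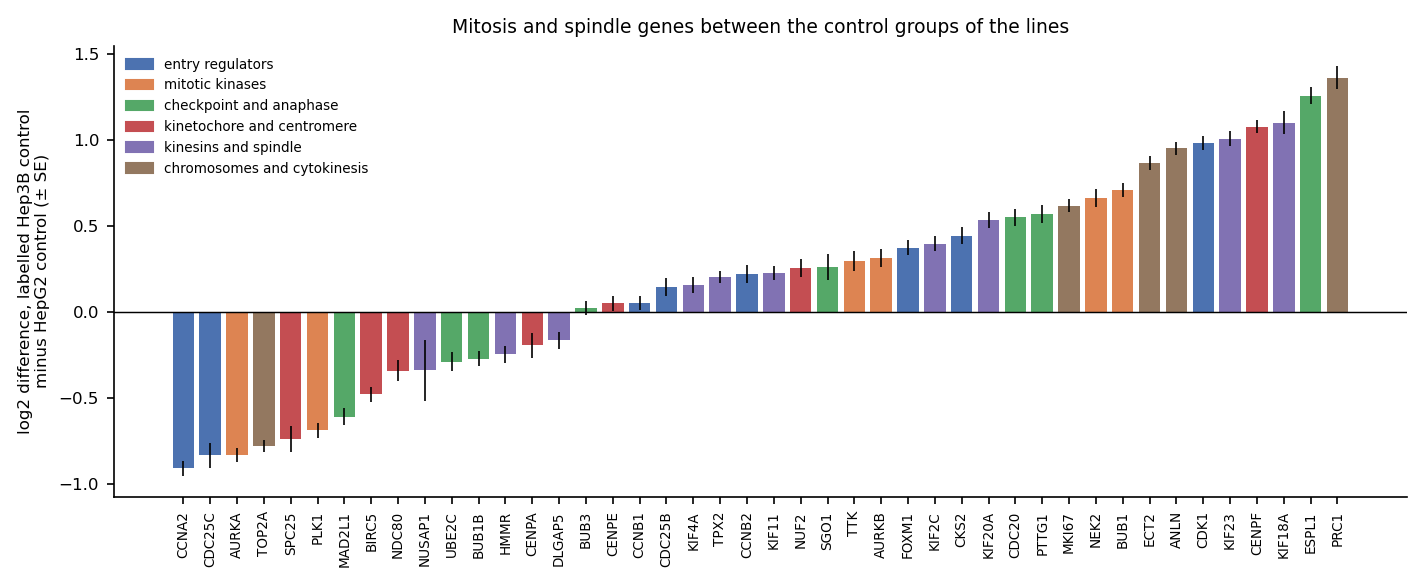
Log2 difference of each of the 44 genes between the control groups, labelled Hep3B with control shRNA minus HepG2 with pLVX (vertical axis, bars; black lines ± SE), coloured by role and ordered by size. 26 genes were called higher and 14 lower, from -0.91 for CCNA2 to 1.36 for PRC1, and under TMM scaling every role has genes called on both sides.

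Levels of different genes were compared per length, on the deposited FPKM, fragments scaled by gene length and library size. TOP2A was highest over the 12 libraries, at 122 ± 3.60 FPKM and 98.3 ± 1.33 FPKM (SD, n = 3) without and with the CD146 shRNA and 164 ± 2.74 FPKM and 137 ± 1.52 FPKM with pLVX and the CD146 vector. CKS2 had the second mean over the 12 libraries, at 156 ± 3.37 FPKM, 93.9 ± 7.53 FPKM, 89.6 ± 1.64 FPKM and 81.0 ± 2.34 FPKM in the same order of groups. TPX2 was close to CKS2 in the mean over all libraries (104.3 and 105.0 FPKM), and CCNB1 and MKI67 came next. The order of these 3 genes differed between groups. It was CKS2, TPX2 and TOP2A with the control shRNA, and TPX2, TOP2A and CKS2 with the CD146 shRNA, where TPX2 stood at 106 ± 1.06 FPKM and the spreads of TOP2A and CKS2 overlapped. In both HepG2 groups it was TOP2A, TPX2 and CKS2, and with pLVX the spreads of TPX2 and CKS2 overlapped. SGO1 (6.03 FPKM), PRC1 (5.63 FPKM) and NUSAP1 (1.20 FPKM) had the lowest means over all libraries, NUSAP1 at 1.16 ± 0.151 FPKM with the control shRNA. Exons of SGO1, PRC1 and NUSAP1 overlap those of other genes, and the part of this in their levels was not tested.

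Other genes of mitosis, in 8 lists of 132 genes, were read in the same way. With the CD146 shRNA 69 fell and 14 rose (median -0.13), and in HepG2 52 of 131 fell and 4 rose (median -0.11). Over all genes tested 28.5% fell and 26.8% rose with the shRNA, 40.6% fell among genes of at least 10 CPM, and in HepG2 10.3% fell, 9.55% rose and 14.6% fell at that level. The lists that follow are to be read against these shares, and for cohesin and for the centromere network the share that fell with the shRNA lay below that of genes of at least 10 CPM. The spindle, centrosome and cytokinesis list had 24 of 28 falling and 2 rising with the shRNA and 17 falling in HepG2. It was led by the tubulin TUBA1B (-0.68 ± 0.05, adjusted p = 1.8e-14) and the kinesin KIF5B (-0.57 ± 0.05, adjusted p = 9.8e-14) with the shRNA, and by ASPM, of the spindle poles (-0.26 ± 0.04, adjusted p = 3e-07), and the kinesin KIF14 (-0.32 ± 0.05, adjusted p = 7.5e-06) in HepG2. TUBA1B and KIF5B are not particular to mitosis. All 8 condensin genes fell in HepG2, and 6 fell and 1 rose with the shRNA. NCAPH (-0.59 ± 0.05, adjusted p = 3e-14) and NCAPG2 (-0.41 ± 0.04, adjusted p = 2.4e-11) led with the shRNA, and NCAPG (-0.31 ± 0.04, adjusted p = 2.8e-08) and NCAPG2 (-0.20 ± 0.04, adjusted p = 0.00033) in HepG2. Of the anaphase-promoting complex and its regulators 12 of 17 fell and 1 rose with the shRNA, with FBXO5 (-0.40 ± 0.07, adjusted p = 1.5e-06) and ANAPC16 (-0.31 ± 0.05, adjusted p = 2.1e-06) first. In HepG2 4 fell, with ANAPC5 (-0.23 ± 0.04, adjusted p = 2.9e-06) and ANAPC11 (-0.29 ± 0.07, adjusted p = 0.0027) first.

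Chromosome cohesion and centromere assembly were read next. Cohesin had 3 of 13 falling and 1 rising with the shRNA, where STAG1 (-0.48 ± 0.05, adjusted p = 1.5e-10) and PDS5A (-0.32 ± 0.05, adjusted p = 1.5e-07) led, and 4 falling in HepG2, where the core subunits SMC3 (-0.26 ± 0.04, adjusted p = 2.3e-07) and SMC1A (-0.21 ± 0.03, adjusted p = 6.5e-06) led. The centromere and kinetochore network had 11 of 30 falling in each line, with 3 rising with the shRNA. SKA3, of the SKA complex, fell with the shRNA (-0.82 ± 0.06, adjusted p = 2.7e-14), and KNTC1, of the complex that recruits dynein to kinetochores, rose with the shRNA (0.45 ± 0.04, adjusted p = 5e-12) and fell in HepG2 (-0.29 ± 0.04, adjusted p = 1.6e-08). CENPK, a subunit of the constitutive centromere network, fell in HepG2 (-0.28 ± 0.06, adjusted p = 0.0006). Of 7 chromosomal passenger and checkpoint genes, 4 fell and 1 rose with the shRNA, INCENP (-0.42 ± 0.05, adjusted p = 4.4e-09) and SGO2 (-0.52 ± 0.07, adjusted p = 8.2e-09) first, and TRIP13 alone fell in HepG2 (-0.19 ± 0.06, adjusted p = 0.012). Among the 17 DREAM, MYB and E2F genes, 7 fell and 1 rose with the shRNA and 6 fell in HepG2. The share that fell with the shRNA was close to the 40.6% of genes of at least 10 CPM. MYBL2, which encodes B-MYB, fell in both (-0.40 ± 0.04, adjusted p = 3.5e-10, and -0.29 ± 0.04, adjusted p = 5.3e-08), E2F4, a repressor subunit of DREAM, fell with the shRNA (-0.58 ± 0.06, adjusted p = 1.7e-10), and TFDP1, an E2F partner, fell in HepG2 (-0.20 ± 0.04, adjusted p = 0.00011).

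Of the brakes on CDK1 and the cell cycle, 4 of 12 rose and 2 fell with the shRNA, where 26.8% of all genes rose, and in HepG2 4 of 11 rose and 1 fell, where 9.55% rose. The count with the shRNA was close to that over all genes. CDKN1A, the CDK inhibitor p21, stood at 27.8, 26.7 and 25.5 CPM in the CD146 shRNA libraries against 24.4, 21.7 and 21.2 CPM in their controls (0.25 ± 0.07, adjusted p = 0.0038). HepG2 values of CDKN1A were 49.9, 45.3 and 48.2 CPM with the CD146 vector against 27.4, 29.7 and 26.0 CPM with pLVX (0.78 ± 0.06, adjusted p = 1.4e-14). CDKN1A was higher in every treated library of both lines. BTG2, an antiproliferative gene, rose by 0.34 ± 0.08 (adjusted p = 0.00052) and 0.81 ± 0.07 (adjusted p = 2.3e-13), and GADD45A, a stress-response gene that can inhibit CDK1, by 0.23 ± 0.10 (adjusted p = 0.043) and 0.51 ± 0.07 (adjusted p = 1.7e-07). CDKN1B, the inhibitor p27, rose with the shRNA (0.59 ± 0.05, adjusted p = 3.8e-12) and WEE1, the kinase that phosphorylates CDK1, in HepG2 (0.18 ± 0.04, adjusted p = 0.0022). CDKN1C (-0.74 ± 0.11, adjusted p = 2.3e-07) and PPP2R2A (-0.17 ± 0.04, adjusted p = 0.0014) fell with the shRNA and SFN (-0.23 ± 0.08, adjusted p = 0.03) in HepG2. The call of GADD45A with the shRNA was lost with DESeq2, totals alone, FPKM or no filter, and without CD146 shRNA library 3 or control shRNA library 2 or 3. That of SFN was lost with the same 4 settings, in 1 fit of all libraries, and without any of the HepG2 libraries but pLVX library 3. In HepG2 TRIP13 was lost with DESeq2, totals alone or FPKM, and without CD146 vector library 1 or 3 or pLVX library 2, while ANAPC11, CENPK, KIF14, NCAPG2 and TFDP1 were lost on FPKM. Genes of G1/S and DNA replication were read for comparison. Of 34, 17 fell and 5 rose with the shRNA (median -0.11), and 21 fell in HepG2 (median -0.16), counts given under TMM scaling only.

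**Figure D5:**
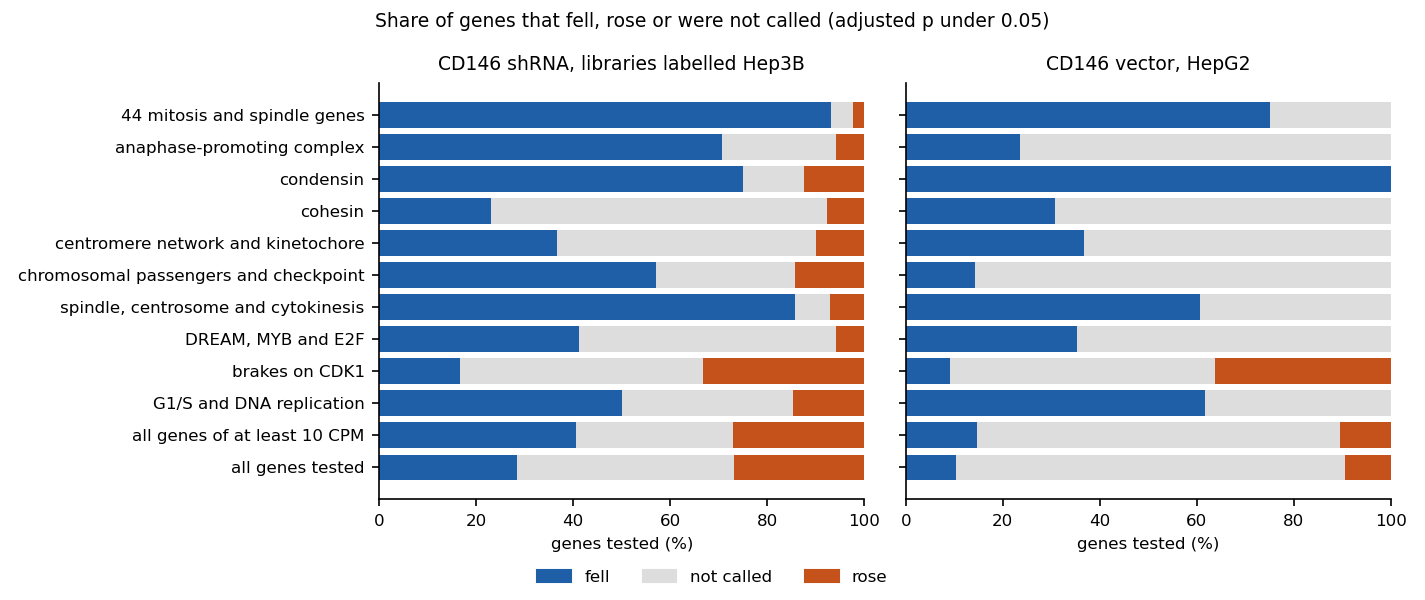
Share of the genes tested in each list that fell (blue), were not called (grey) or rose (orange), with the CD146 shRNA in the libraries labelled Hep3B (left) and the CD146 vector in HepG2 (right). Of the 44 genes 41 fell on the left and 33 on the right, while the list of brakes has 4 rising genes on each side.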

How the data were processed

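Raw counts per Ensembl gene ID for all 12 libraries were deposited by the authors, with no normalisation found in the values, beside deposited FPKM, which the authors scaled by gene length and library size. HTSeq 0.6.1, HISAT2 2.2.1 and cutadapt 1.9.1 are named, without roles, per the submitters' processing notes. The build, annotation and strand setting are not given in the sources used here, so reads of overlapping and antisense genes may be mixed. Gene names were found for 61757 of 61806 IDs.

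Groups came from the treatment labels. Each comparison was fitted on all genes with edgeR 4.0.16 (R 4.3.3) on counts: TMM scaling, filterByExpr, the quasi-likelihood test and Benjamini-Hochberg adjustment, called at 0.05, with TMM-scaled CPM over the 12 libraries printed as levels. The SE of a log2 fold change, which edgeR does not give, was taken as its size divided by the square root of the quasi-likelihood F statistic. Each test was checked on simulated counts with the same spread for every gene. Of 1.25-fold changes it recovered 82% (knockdown), 70% (overexpression), 62% (controls) and 44% (difference). Smaller changes, as most falls in HepG2 were, were not simulated. DESeq2 1.42.0 and limma 3.58.1 on log2(FPKM + 1) or log2(FPKM + 0.1) were alternatives, with RLE size factors, totals alone, no filter, 1 fit of all libraries, a replicate block and each library left out. With totals of 12772991 to 18129816 counts the biological coefficient of variation was 2.92% to 3.79%.

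The 44 genes, the other lists and the markers were chosen with earlier results of these data known. Values per library are given, in each role, for up to 3 genes with the smallest adjusted p, and for genes called against most, not called with the shRNA, or among the 6 largest differences between controls. From each other list up to 2 genes per comparison by adjusted p are named, and every called brake. RefSeq promoter windows (GRCh38.p14) were searched for the CHR and CCAAT letters on both strands.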

Additional observations from a re-analysis of the deposited data

Results flagged for a closer look

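CENPE changed in opposite directions under the perturbations: 0.31 ± 0.05 with the CD146 shRNA in the libraries labelled Hep3B and -0.32 ± 0.05 with the CD146 vector in HepG2. It was 1 of 44 genes with this pair of calls, a share close to the 2.89% of all 13559 genes tested in both lines. The test of the difference over all 12 libraries gave 0.63 ± 0.07 on the log2 scale (edgeR adjusted p = 9.7e-12). Line and perturbation cannot be told apart in it. Its control groups overlapped between the lines (0.05 ± 0.05, adjusted p = 0.33), and its exons overlap those of no other gene in GENCODE version 29.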

How the results depend on the processing

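Settings were changed 1 at a time, except that DESeq2 changed the scaling and the test together, and limma on FPKM the input, the scaling and the test. Leaving out each library in turn, 39 to 41 members fell and 1 to 2 rose with the CD146 shRNA (40 to 42 called), the second riser being NUSAP1 without CD146 shRNA library 1. In HepG2 27 to 33 fell and 0 rose in any. Between controls 14 to 15 were lower, 25 to 26 higher and 40 called each time. In the difference 17 to 23 were lower, 1 to 3 higher and 19 to 25 called, with CENPF no longer called without pLVX library 3. Members that fell in HepG2 numbered 22 with totals alone, 26 with DESeq2 and 16 with limma on FPKM at either pseudocount. With totals alone 8 members were lower between controls and 36 were called in the difference, 35 lower and 1 higher. With limma the same counts were 7, 35, 34 and 1. Falls with the shRNA numbered 40 to 42 under the other settings. NUSAP1 had the lowest counts, at 3.39 to 5.58 CPM. The part of its exon overlap with AC087721.2 in this was not tested.

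Some estimates changed sign. In HepG2, where none of these was called, with totals alone, limma at 0.1 and limma at 1, these were BUB3 0.0301, 0.0309 and 0.0294, CDC20 0.00399, 0.00651 and 0.00630 and ESPL1 0.00126, 0.000592 and 0.000789, and SGO1 0.00262 with totals alone. NUSAP1 ranged from -0.211 without pLVX library 3 to 0.00167 without pLVX library 1. Between controls 6 of the 14 genes called lower changed direction, as did NUSAP1, which was not called. In the same order of settings these were BUB1B 0.0817, 0.0788 and 0.0760, CENPA 0.159, 0.155 and 0.146, NDC80 0.0112, 0.0141 and 0.0131, NUSAP1 0.0141, 0.00376 and 0.00129, DLGAP5 0.188, 0.183 and 0.175, HMMR 0.106, 0.104 and 0.0998 and UBE2C 0.0645, 0.0688 and 0.0672.

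Same-numbered libraries did not deviate together (highest correlation 0.05), so the numbers give no pairing. With a replicate block 41 members fell and 1 rose with the shRNA, 30 fell in HepG2, 14 were lower and 26 higher between controls, and 22 were lower and 2 higher in the difference. The cause of these changes was not tested.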

Other observations

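Outside the 44 genes, 5 of 131 other genes of mitosis rose with the CD146 shRNA and fell with the CD146 vector, as CENPE did, a share close to the 2.89% of all 13559 genes tested in both lines. These were the condensin subunit NCAPD3 (0.14 and -0.16), the kinetochore genes DSN1 (0.24 and -0.22) and KNTC1 (0.45 and -0.29), the cytokinesis kinase CIT (0.21 and -0.22) and the transcription factor E2F1 (0.31 and -0.23), where the values are log2 fold changes in the libraries labelled Hep3B and in HepG2. They were singled out after their values were seen. In the replication list MCM3 (0.13 and -0.22), MCM6 (0.13 and -0.15) and POLE (0.16 and -0.15) showed the same pair of calls. Of the other genes of mitosis 34 of 131 fell in both lines, against 4.45% of all genes, and CDKN1A, GADD45A and BTG2 rose in both.

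The largest fall among the 34 replication genes with the shRNA was that of RRM1, the large subunit of ribonucleotide reductase, also named after its value was seen. It stood at 126, 140.1 and 141 CPM in the CD146 shRNA libraries against 320.1, 324 and 309 CPM in their controls (-1.23 ± 0.04, adjusted p = 1.7e-24 in edgeR). Its partner RRM2 stood at 262, 269.7 and 289.8 CPM in the CD146 shRNA libraries against 275, 286 and 281 CPM in their controls (-0.04 ± 0.04, adjusted p = 0.45). HepG2 values of RRM1 were 129, 132 and 133 CPM with the CD146 vector against 149.8, 149.9 and 141 CPM with pLVX (-0.16 ± 0.04, adjusted p = 0.0015) and RRM2 had -0.19 ± 0.04 (adjusted p = 5e-05).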
